A study of Rattus norvegicus with 12 samples.

Results

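The genes described here are 10 genes of Wnt signalling in the rat kidney: the ligand genes Wnt4, Wnt5a, Wnt7b, Wnt10a and Wnt11, the genes of the secreted modulators Sfrp1, Sfrp2, Dkk2 and Dkk3, and Axin2, which encodes a feedback inhibitor inside the cell. They were chosen by gene symbol, with no use of their measured values in the rule, but with earlier results of these data known. They are 10 of the 27723 symbols listed in the 2 deposited expression tables. Each of the 10 symbols had 1 entry in each table. RNA-seq had been carried out on kidneys of male SD rats bought at 8 weeks of age, with 3 rats in each of 4 groups. The adenine group was gavaged with adenine (220 mg/kg daily, 3 weeks), and the control group was given saline over the same time. In the UUO group (unilateral ureteral obstruction) the left ureter was ligated, in the sham group the rats were operated on without ligation, and the kidneys were taken after 2 weeks. The adenine model is thus chemical and reaches both kidneys, whereas the UUO model is surgical and affects the kidney of the ligated side. The values were FPKM (sequenced fragments corrected for the length of the transcript and the mapped total of the sample), and each model was compared with the control group of its own table.

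Wnt ligands are secreted lipid-modified proteins that bind Frizzled receptors together with the co-receptors Lrp5 and Lrp6. In the canonical branch this stabilises beta-catenin, which enters the nucleus and activates target genes together with the TCF and LEF factors. Secreted frizzled-related proteins (the Sfrp genes) bind ligands outside the cell, and Dickkopf proteins (the Dkk genes) act mostly on the Lrp co-receptors. In the kidney, Wnt9b and Wnt4 take part in the formation of nephrons, Wnt11 in branching of the ureteric bud and Wnt7b in the development of the medulla, and the pathway has been studied widely in renal fibrosis.

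Axin2 is used as a readout of the canonical branch because its gene is a direct target of beta-catenin and TCF. Its promoter is shown for the letters that TCF and LEF factors recognise. The window comes from the RefSeq promoter table (build GRCr8, chr10:94398535-94398684, plus strand, the first 150 bases of the 300-base window), which for this gene lies inside the annotated gene and not at its outermost start. Capitals mark matches to CTTTGNN, searched on both strands, in which each N may be only A or T.
Axin2: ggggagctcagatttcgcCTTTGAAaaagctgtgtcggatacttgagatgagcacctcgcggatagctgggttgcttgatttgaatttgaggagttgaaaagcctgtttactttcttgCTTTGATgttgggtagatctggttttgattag
The Axin2 window held 2 matches, as bases 19 to 25 and 119 to 125. Of 33469 promoter windows of 300 bases, 17.1% held at least 1 match and 2.12% at least 2. Among the 10 genes, 6 had a window in the table, and those of Wnt4, Wnt5a, Wnt10a, Wnt11 and Sfrp2 held 0 of these letters. A match is a string of letters, and binding was not measured.

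Read depth is unknown for these files, and neither counting errors nor detection limits could be given, so the precision rests on the spread between 3 rats. The column sums of FPKM ranged from 564972 to 582725 in the control group, 468389 to 487770 in the adenine group, 619664 to 630244 in the sham group and 528811 to 539011 in the UUO group. Differentially expressed genes (DEGs) were those with a limma adjusted p (Benjamini-Hochberg) below 0.05 whose log2 fold change reached 2 in either direction, on the log2(FPKM + 0.1) scale, which understates the change of low genes. Over all tested entries the median log2 fold change was 0.30 for adenine and 0.62 for UUO, and 0.069 and 0.084 after median-of-ratios scaling, so changes are to be read against these shifts. With that scaling the split of DEGs in the UUO model went from 1980 higher and 633 lower to 1308 higher and 917 lower.

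Control replicate 2 stood apart from the other control samples in its cell type markers. The summed FPKM of 4 distal tubule genes was 41.9 there against 608.7 and 357.3, that of 4 podocyte genes was 31.2 against 142.8 and 199.5, and that of 7 urothelium genes was 7.12 against 0.765 and 1.51. In the sham group, replicate 1 had the lowest distal tubule sum, 176.3 against 482.3 and 558.1, and the lowest podocyte sum. These are bulk samples, in which fewer cells of a type and less RNA per cell cannot be told apart. Markers of the proximal tubule, the defining cell type of the renal cortex, were present in every sample. They summed to 1428 to 2107 in control and sham samples and 147.4 to 493.9 in adenine and UUO samples. Of the 6 genes in this sum, 4 were lower DEGs for adenine and 3 for UUO. Slc5a2 was at 13.7, 0.232 and 2.47 FPKM in control and 7.77, 26.6 and 18.3 in adenine rats. Cubn overlapped between the groups of each table. The markers of fibroblasts and myofibroblasts summed to 81.4 to 117.9 in control and 574.2 to 765.9 in adenine samples, and to 81.7 to 112.0 in sham and 1150 to 2583 in UUO samples. These sums cover 7 genes in the first table, where Col1a2 was not listed, and 8 in the second, so their levels are not comparable between the tables. The part of these shifts in cell types in the results below was not tested.

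In the adenine model, 8 of the 10 genes reached the minimum FPKM and 4 of them were DEGs, with Wnt4, Sfrp1 and Dkk3 higher and Sfrp2 lower. Among all tested entries 15.7% were DEGs in that comparison, 10.7% higher and 5.03% lower. In the UUO model, 9 of the 10 genes reached the minimum and 6 were DEGs, with Wnt4, Wnt10a, Sfrp1, Dkk2, Dkk3 and Axin2 higher and 0 lower. Among all tested entries 17.4% were DEGs in the UUO model, 13.2% higher and 4.21% lower. By adjusted p alone, 5 genes were higher and 2 lower in the adenine model, where 59.4% of all tested entries passed (39.6% higher, 19.9% lower). In the UUO model 7 were higher and 0 lower, also 0 at an unadjusted p under 0.05 in limma, where 70.5% passed (56.1% higher, 14.4% lower). Wnt4, Sfrp1 and Dkk3 were DEGs in both models. With median-of-ratios scaling 2 genes were higher and 1 lower DEGs in the adenine model, and 5 higher and 1 lower in the UUO model. With quantile normalization these were 2 higher and 1 lower, and 3 higher and 1 lower. Wnt4 in both tables and Wnt10a in the UUO table reached the minimum FPKM only through the model group.

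**Figure D1:**
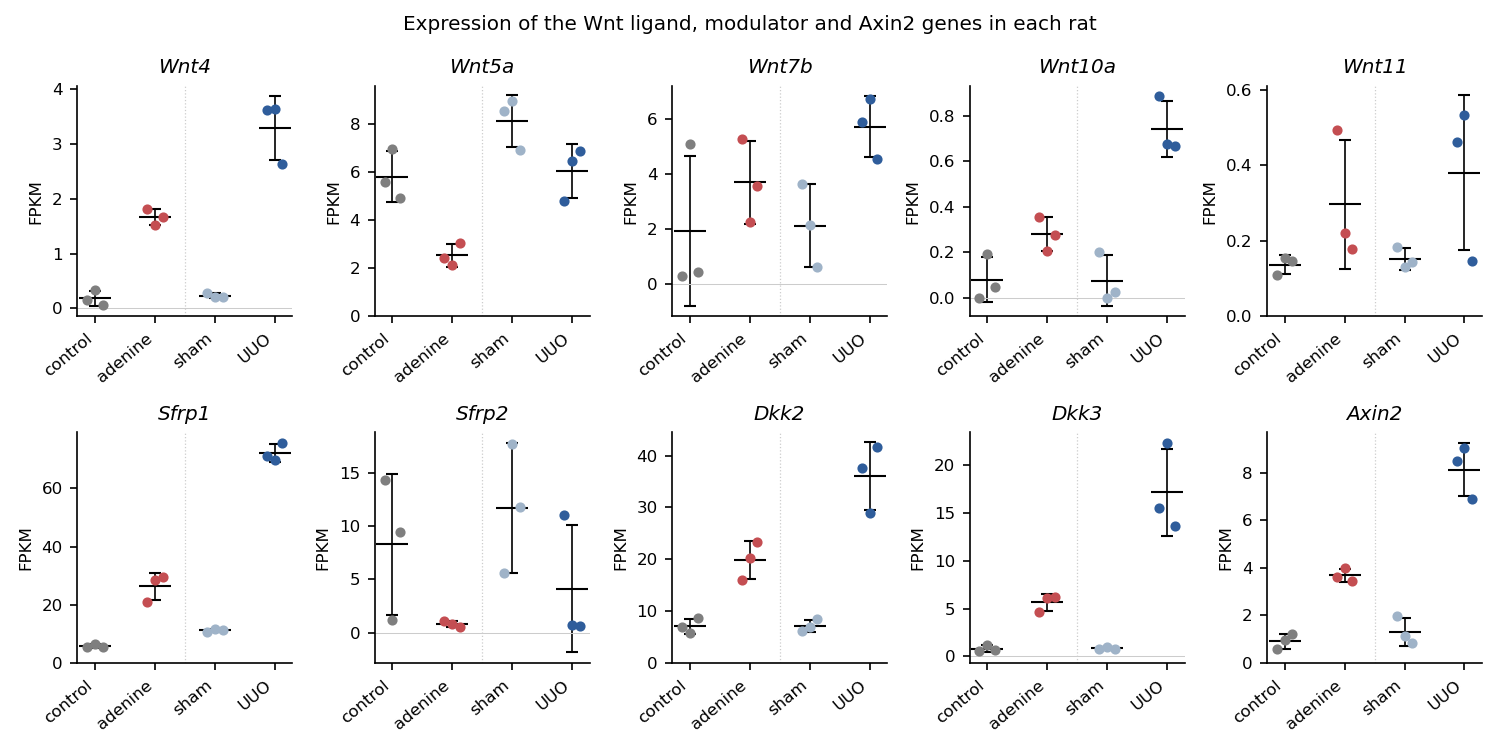
FPKM of each of the 10 genes in each rat (points; vertical axis in FPKM, linear, with its own range in each panel) for the control, adenine, sham and UUO groups, with the group mean and SD (black, n = 3). Sfrp1 and Dkk3 are higher in every adenine rat than in any control rat and in every UUO rat than in any sham rat, whereas the Wnt7b values of the control and adenine groups overlap.

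Wnt4, a ligand needed for the epithelial conversion of the nephron precursors, was low in control and sham kidneys and higher in every rat of both models. Its FPKM was 0.151, 0.328 and 0.0671 in the control rats and 1.81, 1.52 and 1.67 in the adenine rats. The groups did not overlap, and the log2 fold change was 2.75 ± 0.38 (SE, n = 3; limma adjusted p = 0.00109). In the sham rats Wnt4 was at 0.281, 0.201 and 0.203 FPKM and in the UUO rats at 3.61, 3.63 and 2.62. There too the groups stood apart, with a log2 fold change of 3.36 ± 0.25 (limma adjusted p = 5.96e-05). Wnt4 reached the minimum FPKM only through the adenine and the UUO group, so its tests in both tables concern a gene that had to be higher in the model to be tested at all. With the pseudocount raised to 1, its log2 fold change was 1.18 for adenine and 1.80 for UUO, under the threshold of 2.

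Wnt5a, a ligand known mainly for non-canonical signalling, was the ligand gene with the highest level in control and sham kidneys and was lower in the adenine model. Its FPKM was 5.58, 6.98 and 4.92 in control rats and 2.44, 2.13 and 3.07 in adenine rats, with no overlap. The log2 fold change was -1.16 ± 0.21 (limma adjusted p = 0.00302), which did not reach the fold threshold. In the UUO model the values were 8.56, 8.99 and 6.93 in sham and 4.79, 6.48 and 6.90 in UUO rats. The highest UUO rat was just under the lowest sham rat, and the log2 fold change of -0.43 ± 0.18 did not pass the test (limma adjusted p = 0.0697). After median-of-ratios scaling it was -0.97 (limma adjusted p = 0.00358).

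Wnt7b, a ligand of collecting duct epithelium in the developing kidney, varied more between control rats than between the control and adenine groups. Its FPKM was 0.298, 5.10 and 0.461 in control rats and 5.28, 2.27 and 3.59 in adenine rats. The high control value belonged to replicate 2, the groups overlapped, and the log2 fold change of 1.78 ± 0.95 did not pass the test (limma adjusted p = 0.148). Without control replicate 2 it was 2.93 (limma adjusted p = 0.00229). In sham rats Wnt7b was at 3.64, 2.15 and 0.629 FPKM and in UUO rats at 5.89, 6.75 and 4.58. The UUO rats were all above the sham rats, and the log2 fold change was 1.66 ± 0.57 (limma adjusted p = 0.0349), below the fold threshold. It was 2.17 (limma adjusted p = 0.00977) without sham replicate 1, and 1.13 (limma adjusted p = 0.141) with median-of-ratios scaling. The urothelium markers summed to 0.647 to 2.76 FPKM in sham and 73.4 to 146.3 in UUO rats, and 6 of 7 were DEGs there. In the adenine model none of the 2 urothelium markers tested was a DEG, and the sums were 0.765 to 7.12 in control and 1.33 to 4.34 in adenine rats. The 6 collecting duct markers went the other way. They summed to 230.1 to 355.4 FPKM in sham and 93.2 to 117.8 in UUO rats, with 2 lower DEGs. In the first table the sums were 254.6 to 348.0 in control and 115.3 to 204.3 in adenine rats, with 0 DEGs. The part of either cell type in the Wnt7b values was not tested.

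Wnt10a, a canonical ligand, was near the lower end of the scale. Its FPKM was 0, 0.191 and 0.0477 in control rats and 0.356, 0.207 and 0.274 in adenine rats, under the minimum of the test. The groups did not overlap, and an exact permutation test of 3 rats against 3 gave a two-sided p = 0.1, the smallest it can give. In sham rats Wnt10a was at 0.202, 0.0001 and 0.0231 FPKM, where 0.0001 is the lowest value of that table, and in UUO rats at 0.884, 0.674 and 0.666. The log2 fold change was 2.43 ± 0.49 (limma adjusted p = 0.00407), for a gene that reached the minimum FPKM only through the UUO group. With the pseudocount raised to 1 it was 0.70, and with quantile normalization 1.84, both under the fold threshold.

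Wnt11, a ligand of the tips of the ureteric bud, was under the minimum FPKM in both tables. It was at 0.108, 0.155 and 0.147 FPKM in control and 0.492, 0.221 and 0.177 in adenine rats (exact permutation p = 0.1, two-sided). The sham rats had 0.184, 0.129 and 0.142 and the UUO rats 0.461, 0.534 and 0.147, so that UUO replicate 3 lay within the sham range (exact permutation p = 0.2, two-sided).

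Sfrp1, which encodes a ligand-binding antagonist, was among the most abundant of the 10 genes and rose in both models with little spread between rats. Its FPKM was 5.42, 6.45 and 5.32 in control rats and 20.8, 28.5 and 29.5 in adenine rats. No adenine rat came near the control range, and the log2 fold change was 2.16 ± 0.17 (limma adjusted p = 0.000113). Median-of-ratios scaling brought it to 1.93, under the fold threshold, with an adjusted p in limma of 0.000155. In sham rats Sfrp1 was at 10.5, 11.6 and 11.4 FPKM and in UUO rats at 71.1, 69.9 and 75.7. It had the highest level of the 10 genes in the UUO group, and its log2 fold change was 2.68 ± 0.083 (limma adjusted p = 5.84e-06).

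Sfrp2, a close relative of Sfrp1, went the other way in the adenine model. Its FPKM was 14.3, 1.19 and 9.47 in control rats and 1.05, 0.785 and 0.556 in adenine rats. The low control value again belonged to replicate 2, yet every adenine rat was below it, and the log2 fold change was -2.68 ± 0.87 (limma adjusted p = 0.0331). Without control replicate 2 the log2 fold change was -3.75 (limma adjusted p = 0.000577), and without any 1 of the other 5 samples it lost the call, with adjusted p values up to 0.101. In sham rats Sfrp2 was at 5.58, 17.8 and 11.8 FPKM and in UUO rats at 11.0, 0.751 and 0.605. UUO replicate 1 lay within the sham range, and the log2 fold change of -2.50 ± 1.07 did not pass the test (limma adjusted p = 0.0716). Without UUO replicate 1 it was -3.78 (limma adjusted p = 0.00135), and with median-of-ratios scaling it was -3.02 (limma adjusted p = 0.0470). That rat also had the highest fibroblast and myofibroblast marker sum, 2583 FPKM against 1885 and 1150. The markers were not alike in this: Col1a1, Col1a2, Col3a1, Dcn and Postn were highest in that rat, and Pdgfra, Pdgfrb and Acta2 were not.

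**Figure D2:**
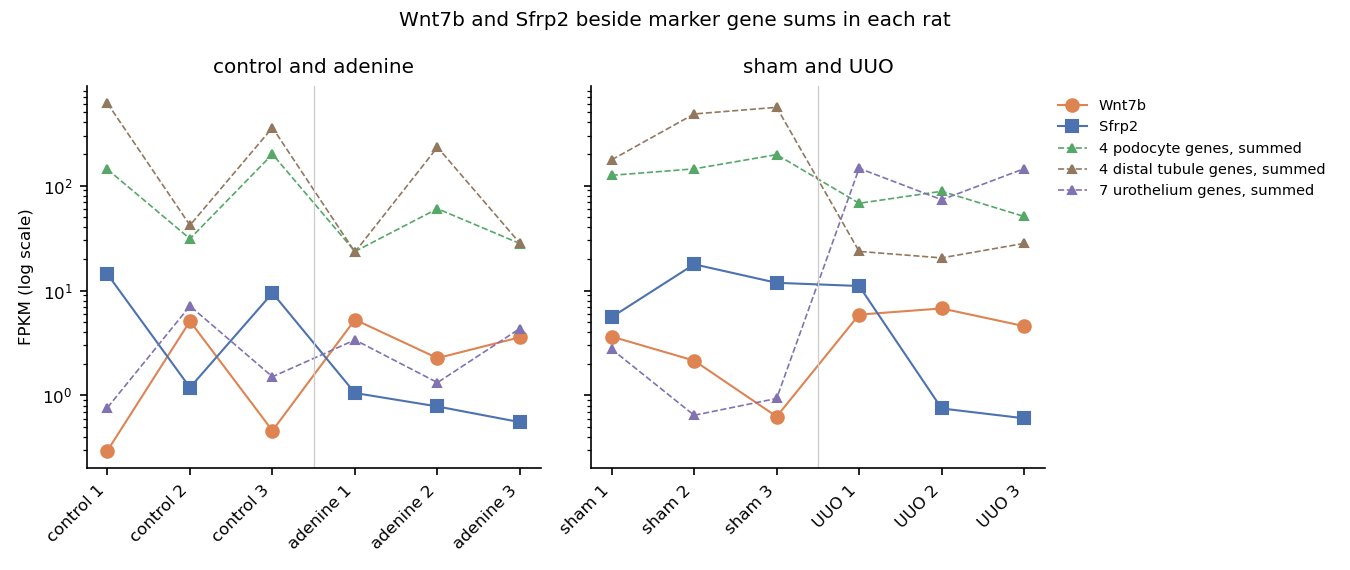
FPKM of Wnt7b and Sfrp2 (solid lines) beside the summed FPKM of 4 podocyte, 4 distal tubule and 7 urothelium marker genes (dashed lines) in each rat, on a log scale; lines join rats only to guide the eye. Control replicate 2 has the highest Wnt7b (5.10) and the lowest Sfrp2 (1.19) of the control rats together with the lowest podocyte and distal tubule sums (31.2 and 41.9).

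Wnt7b and Sfrp2 were at opposite ends in a control rat and a sham rat whose markers also differed, but not in the model groups. In control replicate 2, Wnt7b was highest and Sfrp2 lowest among control rats, and sham replicate 1 had the highest Wnt7b, 3.64 FPKM, and the lowest Sfrp2, 5.58 FPKM, of the sham rats. The podocyte and distal tubule sums were lowest in those same rats. Adenine replicate 1 also had the lowest podocyte and distal tubule sums of its group, 23.6 and 23.3 FPKM. Its Wnt7b was the highest of the adenine rats, 5.28 FPKM, but so was its Sfrp2, 1.05 FPKM. UUO replicate 1 had the highest Sfrp2 of the UUO rats, 11.0 FPKM, and the middle Wnt7b value, 5.89 FPKM. The part of tissue make-up in these values was not tested.

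Dkk2, a Dickkopf that can inhibit or activate the pathway depending on the cell, rose in both models. Its FPKM was 6.85, 5.70 and 8.61 in control rats and 16.0, 20.3 and 23.2 in adenine rats. The groups did not overlap, and the log2 fold change was 1.48 ± 0.20 (limma adjusted p = 0.000982), below the fold threshold. The sham rats had 6.07, 6.92 and 8.35 FPKM and the UUO rats 37.7, 28.9 and 41.7. This was a log2 fold change of 2.32 ± 0.18 (limma adjusted p = 6.30e-05), which median-of-ratios scaling brought to 1.78, under the threshold.

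Dkk3, a divergent Dickkopf that is released by stressed tubule epithelium, rose most of the 10 genes in the UUO model and about as much as Wnt4 in the adenine model. Its FPKM was 0.505, 1.18 and 0.642 in control rats and 4.62, 6.11 and 6.20 in adenine rats. All adenine rats were far above the control range, with a log2 fold change of 2.77 ± 0.31 (limma adjusted p = 0.000454). In sham rats Dkk3 was at 0.723, 0.996 and 0.741 FPKM and in UUO rats at 15.5, 22.4 and 13.6. The ratio of the group means was 20.9, and the log2 fold change was 4.21 ± 0.23 (limma adjusted p = 2.17e-05).

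Axin2 rose in both models and was close to the fold threshold in the adenine model. Its FPKM was 0.559, 0.955 and 1.20 in control rats and 3.60, 3.98 and 3.45 in adenine rats. The log2 fold change was 1.96 ± 0.28 (limma adjusted p = 0.00122), and it passed both thresholds under 5 of 16 settings. In sham rats Axin2 was at 1.95, 1.10 and 0.848 FPKM and in UUO rats at 8.49, 9.05 and 6.88. There the log2 fold change was 2.62 ± 0.30 (limma adjusted p = 0.000312), and the groups did not overlap. With quantile normalization it was 1.83, under the fold threshold.

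**Figure D3:**
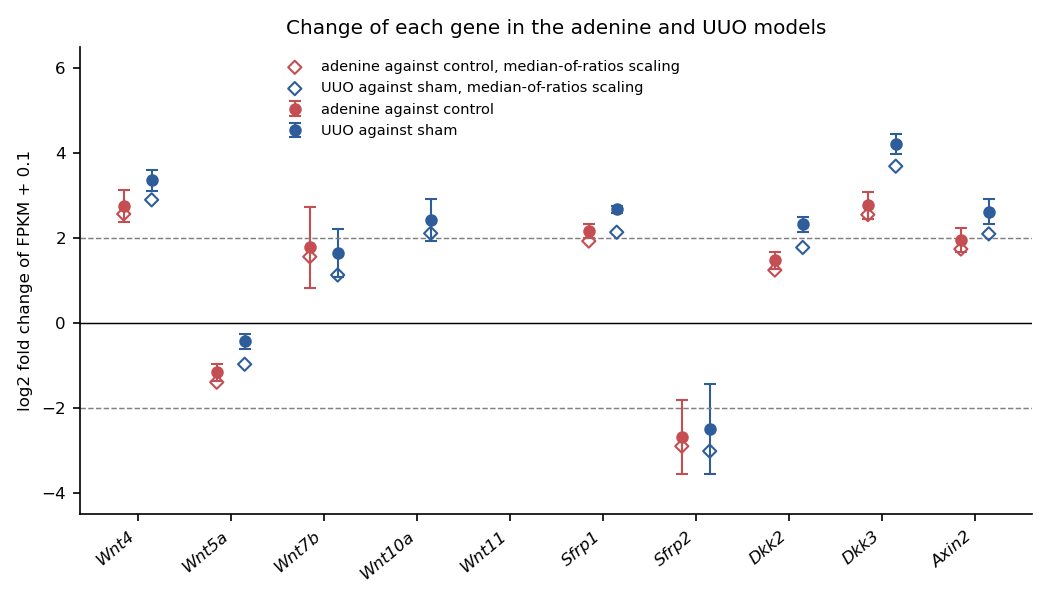
Log2 fold change of FPKM + 0.1 for each gene that reached the minimum FPKM, adenine against control (red) and UUO against sham (blue), as the fitted value with its SE (filled) and with median-of-ratios scaling (open diamonds); dashed lines mark -2 and 2. Dkk3 is highest in the UUO model (4.21) and level with Wnt4 in the adenine model (2.77 and 2.75), and Sfrp2 is the lowest in both (-2.68 and -2.50).

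The groups did not overlap for 9 of the 10 genes in the adenine model, 7 higher and 2 lower, and for 8 in the UUO model, 7 higher and 1 lower. Of the genes that reached the minimum FPKM these were 7 of 8, 5 higher and 2 lower, and 8 of 9, 7 higher and 1 lower. Among all tested entries 68% did not overlap in the adenine comparison, 45% higher, and 75.7% in the UUO comparison, 60% higher. Levels per length also changed their order. In control rats Sfrp2, Dkk2, Wnt5a and Sfrp1 had the highest mean FPKM, 8.33 ± 6.64, 7.06 ± 1.47, 5.83 ± 1.05 and 5.73 ± 0.627 (SD, n = 3), and neighbours in that order overlapped. In adenine rats Sfrp1 came first with 26.2 ± 4.76 and Dkk2 next with 19.8 ± 3.64, with overlapping ranges, and Sfrp2 had fallen to 0.798 ± 0.249.

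The size of the change was compared between the models for the 8 genes tested in both. With both thresholds 0 of 8 differed, where 2.88% of all 13486 symbols tested in both did, and 4 had an unadjusted p under 0.05, where 40.4% of all symbols did. By adjusted p alone Dkk3 and Dkk2 differed, beside 27% of all symbols. The log2 fold change of Dkk3 was lower in the adenine model by 1.44 (adjusted p = 0.0165 from the limma fits; 95% interval of the adenine minus UUO difference -2.27 to -0.60). For Dkk2 the difference was -0.84 (adjusted p = 0.0337 from the limma fits; interval -1.42 to -0.26). With median-of-ratios scaling neither passed, with adjusted p values of 0.0629 for Dkk3 and 0.156 for Dkk2, beside 18.9% of all symbols that did. The difference for Wnt4 was -0.61 (interval -1.60 to 0.38) and that for Axin2 was -0.66 (interval -1.55 to 0.23), so that a difference of the order of 1 in either is not excluded by these intervals. The models differ in agent, in surgery and in time, and the tables were made separately, so these causes cannot be told apart.

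The FPKM of all Wnt ligand genes listed was summed in each rat, over 17 symbols in the first table and 19 in the second. The sum was 11.7, 17.7 and 9.56 in control rats and 17.3, 11.6 and 15.5 in adenine rats, which overlapped (exact permutation p = 0.8, two-sided). Without control replicate 2 the ratio of the means went from 1.14 to 1.39. In sham rats the sum was 17.6, 17.7 and 11.1 and in UUO rats 29.2, 32.0 and 28.2, with no overlap (exact permutation p = 0.1, two-sided, the smallest possible). The share of Wnt5a in this sum was 46.1% ± 6.19 in control and 17.4% ± 2.95 in adenine rats (SD, n = 3), and 53.9% ± 7.49 in sham and 20.4% ± 4.02 in UUO rats. Wnt4 had 1.28% ± 0.574 in control and 11.4% ± 1.43 in adenine rats, and 1.52% ± 0.353 in sham and 11.0% ± 1.56 in UUO rats. Neither of these shares overlapped between the groups of either table, and the exact permutation p was 0.1 each time. The set of ligand genes was thus led by Wnt5a in the control and sham kidneys and spread over more genes in the models.

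**Figure D4:**
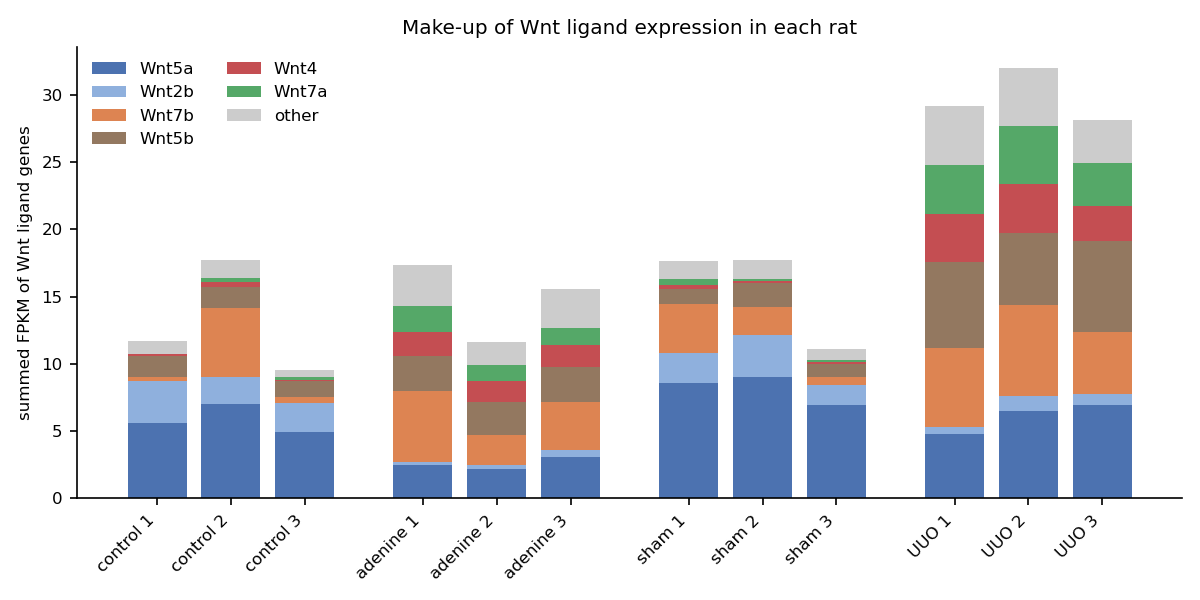
Summed FPKM of the Wnt ligand genes in each rat (bar height, from 0), divided among Wnt5a, Wnt2b, Wnt7b, Wnt5b, Wnt4, Wnt7a and the other ligand genes (grey). Wnt5a takes 39.3% to 62.4% of each control or sham bar and 14.1% to 24.5% of each adenine or UUO bar.

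Among the antagonists, the summed FPKM of the Sfrp genes and Frzb was 24.2 ± 5.08 in control and 63.7 ± 11.5 in adenine rats, and 36.7 ± 7.68 in sham and 144.5 ± 22.0 in UUO rats. Sfrp1 made up 24.7% ± 7.62 of it in control and 41.2% ± 2.89 in adenine rats, and 31.1% ± 4.82 in sham and 50.7% ± 7.47 in UUO rats. The summed FPKM of the Dkk genes was 12.9 ± 1.35 and 31.9 ± 4.49 in control and adenine rats and 12.2 ± 1.53 and 62.1 ± 3.39 in sham and UUO rats. None of these sums overlapped between the groups (exact permutation p = 0.1, two-sided). Per FPKM of ligand there were 2.02 ± 0.803 FPKM of Sfrp genes and Frzb in control and 4.52 ± 1.70 in adenine rats, and 2.46 ± 0.719 in sham and 4.88 ± 0.927 in UUO rats.

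Of 118 other genes of the pathway, put together in lists by role, 84 were tested in the adenine model, with 11 higher and 2 lower DEGs, and 85 in the UUO model, with 20 higher and 0 lower (4 lower at an unadjusted p under 0.05 in limma). These were 15.5% and 23.5% of the tested list genes, beside 15.7% and 17.4% of all tested entries, and with median-of-ratios scaling the UUO counts were 15 higher and 1 lower. The median log2 fold change of the tested genes was 0.68 with adenine and 1.03 with UUO, beside 0.30 and 0.62 over all tested entries. Of these tested genes, 8 in the adenine table and 10 in the UUO table reached the minimum FPKM only through 1 group. In both tables these included Wnt7a, Rspo1, Sfrp4, Mmp7 and Ccn5, with Sfrp5 in the adenine table and Lef1 in the UUO table, all of which had to be higher in the model to be tested. With median-of-ratios scaling 5 genes named below lost the call in the UUO model, namely Wnt5b, Frzb, Fzd2, Porcn and Prickle1, at log2 fold changes of 1.71, 1.65, 1.65, 1.47 and 1.57.

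Among the other ligand genes, Wnt7a was a DEG in both models and Wnt2b in the adenine model. Wnt7a was at 0.0488 to 0.293 FPKM in control and 1.22 to 1.94 in adenine rats (log2 fold change 2.53 ± 0.44, limma adjusted p = 0.00273) and at 0.109 to 0.474 in sham and 3.24 to 4.31 in UUO rats (3.70 ± 0.44). Wnt2b, a canonical ligand, fell from 2.06 to 3.10 FPKM in control to 0.239 to 0.509 in adenine rats. Its log2 fold change there was -2.49 ± 0.31 (limma adjusted p = 0.000672). Wnt2b was also lower in UUO rats, at 0.459 to 1.12 FPKM against 1.46 to 3.12 in sham rats. That log2 fold change was -1.39 ± 0.39 (limma adjusted p = 0.0168), short of the fold threshold, and -1.89 with median-of-ratios scaling. For Wnt2b the adenine change minus the UUO change was -1.10 (adjusted p = 0.117 from the limma fits). Wnt5b, the closest relative of Wnt5a, rose in the UUO model from 0.946 to 1.72 FPKM to 5.42 to 6.78 (log2 fold change 2.23 ± 0.24, limma adjusted p = 0.000240). It also rose in the adenine model, by 0.78 ± 0.19 (limma adjusted p = 0.0120), below the fold threshold. Among 18 other secreted modulators, Rspo1, which amplifies the signal, rose in both models, by 4.15 ± 0.50 and 2.51 ± 0.34 in log2 fold change. Sfrp4 rose by 5.61 ± 0.51 with adenine and by 4.26 ± 1.04 with UUO, where UUO replicate 1 had 13.2 FPKM and the others 0.901 and 0.696. Sfrp5 was listed at 0 in 2 control rats and was at 7.12 to 10.8 FPKM in adenine rats, and it stayed under the minimum FPKM in the UUO model. Frzb, an antagonist of the Sfrp family, was a DEG in the UUO model, with a log2 fold change of 2.19 ± 0.16, and had 1.07 ± 0.21 in the adenine model. Sostdc1, an antagonist picked out after its values were seen, went the other way. It was at 72.3, 73.8 and 72.3 FPKM in control and 29.8, 30.0 and 25.8 in adenine rats (log2 fold change -1.35 ± 0.10, limma adjusted p = 8.56e-05), and at 104.9 to 130.9 in sham and 27.0 to 40.8 in UUO rats (-1.73 ± 0.17). With median-of-ratios scaling its log2 fold change in the UUO model was -2.28, past the threshold.

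Among receptors and signal carriers, few were DEGs and more passed on adjusted p alone. Of 20 receptor genes tested in each model, 0 were DEGs in the adenine model, where 10 passed on adjusted p alone in limma (8 higher and 4 lower at an unadjusted p under 0.05), and 2 in the UUO model, where 14 were higher and 1 lower on adjusted p alone. On adjusted p alone 10 of the 20 passed for adenine and 15 for UUO, beside 59.4% and 70.5% of all tested entries. Median-of-ratios scaling turned the UUO counts into 6 higher and 6 lower, beside 4547 higher and 3959 lower of 15043 entries. The adenine counts were then 5 higher and 4 lower. As shares, DEGs were 0% and 10% of these genes, beside 15.7% and 17.4% of all tested entries. The 2 were Fzd2, a Frizzled, with a log2 fold change of 2.18 ± 0.37, and Adgra2, a co-receptor for Wnt7a and Wnt7b, with 2.70 ± 0.27. In the adenine model Fzd2 had 0.28 ± 0.30, and Adgra2 rose by 1.68 ± 0.17 (limma adjusted p = 0.00029), below the fold threshold. Porcn, the enzyme that adds the lipid to ligands, had 2.01 ± 0.18 in the UUO model and 0.85 ± 0.14 in the adenine model. Of 21 canonical signal carriers tested in the UUO model 20 were higher on adjusted p alone, beside 56.1% of all tested entries. With median-of-ratios scaling 13 of the 21 were, beside 4547 of 15043 entries. With adenine 15 of 20 were higher and 1 lower, beside 39.6% and 19.9% of all tested entries. In the UUO model 2 were DEGs, the transcription factors Tcf7 and Lef1, at log2 fold changes of 2.81 ± 0.36 and 2.48 ± 0.35. In the adenine model Tcf7 had 1.66 ± 0.29 and Lef1 was under the minimum FPKM.

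The feedback inhibitors Nkd1 and Nkd2, which act on Dishevelled, did not move alike. Nkd1 was at 0.838 to 0.948 FPKM in sham and 7.47 to 8.33 in UUO rats (log2 fold change 3.02 ± 0.15, limma adjusted p = 1.73e-05), and had 1.63 ± 0.28 in the adenine model. Nkd2 fell from 14.4, 21.3 and 36.1 FPKM in control to 5.30, 5.17 and 6.03 in adenine rats, a log2 fold change of -2.00 ± 0.32 at the threshold, which it passed under 11 of 16 settings. In the UUO model its log2 fold change was -0.20 ± 0.30.

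Of 14 genes described as targets of beta-catenin in the injured kidney, 7 were DEGs in both models and all 7 were higher. DEGs were 50% of the tested genes of this list with adenine and 57.1% with UUO, beside 15.7% and 17.4% of all tested entries. The list was made of genes described in the injured kidney, with earlier results of these data known, so these shares do not test the pathway. Of its tested genes, 2 with adenine and 3 with UUO reached the minimum FPKM only through 1 group, Mmp7 and Ccn5 among them in both. Mmp7, a matrix protease, was listed at 0 in all control rats and was at 44.6, 50.2 and 76.5 FPKM in adenine rats, and it was at 0.0442 to 0.183 in sham and 32.5 to 214.3 in UUO rats. Fn1, which encodes fibronectin, rose by 5.46 ± 0.45 with adenine and 3.47 ± 0.23 with UUO, on the log2 scale. Cd44, a hyaluronan receptor, rose by 4.82 ± 0.26 with adenine and 3.78 ± 0.17 with UUO. Myc, S100a4, Plaur and Ccn5 were the other 4, with log2 fold changes of 2.20 to 4.34 for adenine and 3.01 to 3.14 for UUO. In the adenine model Ccn5 passed both thresholds under 8 of 15 settings, with log2 fold changes of 0.98 to 2.78 and limma adjusted p values up to 0.0811. Other genes of the list fell, here named after their values were seen. Ccnd1, the cyclin D1 gene, had log2 fold changes of -0.83 ± 0.10 with adenine and -0.55 ± 0.16 with UUO (limma adjusted p = 0.000672 and 0.0169), and Agtr1a, an angiotensin receptor, had -1.01 ± 0.14 with adenine (limma adjusted p = 0.00112). Many other pathways also act on these genes. Macrophage markers, 5 of 5 of which were DEGs in each model, rose beside them, from 13.2 to 16.7 FPKM in control to 400.5 to 630.9 in adenine rats and from 14.5 to 21.9 in sham to 175.3 to 208.8 in UUO rats, and their part in these values was not tested. Snai1, a transcription factor of mesenchymal cells, was a DEG in the UUO model alone by the thresholds, at 2.65 ± 0.17 against 1.55 ± 0.19 in the adenine model. Prickle1, of the planar polarity branch, had 2.10 ± 0.19 in the UUO model and 1.59 ± 0.20 in the adenine model.

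**Figure D5:**
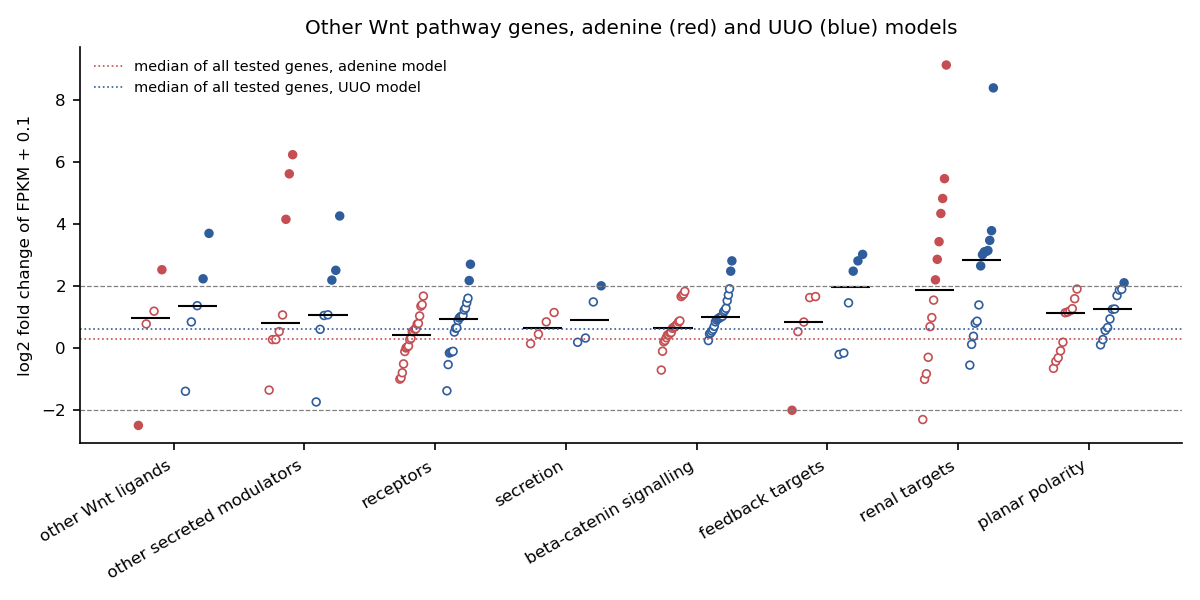
Log2 fold change of FPKM + 0.1 of the tested genes of 8 Wnt pathway lists in the adenine (red) and UUO (blue) models; filled points are DEGs, black bars are list medians, dotted lines are the medians of all tested genes (0.30 and 0.62) and dashed lines mark -2 and 2. The lists were chosen with earlier results of these data known, and the list of renal targets has the highest median in both models, 1.87 and 2.83.

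For the genes that were DEGs in both models, the symbols with the most similar pattern were sought over the 12 samples, among 13486 symbols tested in both tables. The values were log2(FPKM + 0.1) minus the mean of the control or sham group, so that the similarity rests mostly on how the changes in the 2 models compare, and the 12 samples share their tables and groups. For Wnt4 these were Rgs19, Cd40 and Zyx (Pearson r 0.994, 0.993 and 0.993), for Sfrp1 Cd276, Ifngr1 and Cnih4 (r 0.997 for each) and for Dkk3 Fgd1, Ms4a6bl and Eif3f (r 0.995, 0.995 and 0.993). The correlation does not depend on the size of the change: Cnih4 changed by 0.95 with adenine and 1.23 with UUO, on the log2 scale, and Sfrp1 by 2.16 and 2.68.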

How the data were processed

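Poly(A) RNA from kidneys of 12 male SD rats had been sequenced on an Illumina NovaSeq. Per the submitters' processing notes the tools included cutadapt 1.9, HISAT2 2.0.4, StringTie 1.3.4d, edgeR and DESeq2, and the genome build is not given in the sources used here. The authors deposited FPKM values per gene in 2 tables, of 22132 and 32623 entries, with no read counts, so no count test was run. Samples were grouped by their labels, and each table was fitted separately with limma 3.58.1 (lmFit, eBayes with a trend) in R 4.3.3 on log2(FPKM + 0.1), for entries at or above FPKM 0.5 in 3 or more of the 6 samples. Benjamini-Hochberg adjustment ran over all tested entries, and DEGs passed an adjusted p of 0.05 and a log2 fold change of 2 in either direction, the thresholds of the study. Models were compared by subtracting their log2 fold changes and dividing by the root of the summed squared SEs, tested as t with the degrees of freedom added up. The fits were tested on simulated data. Permutation tests were exact and two-sided, over 10 splits. Figures were drawn with matplotlib 3.10.9 in Python 3.11.15. The genes, lists and tests were chosen with earlier results of these data known, and a gene of the lists that is not reported here was left out of their counts. Named genes were the 10 genes, from each list the DEGs of both models and up to 3 further DEGs per list and model with the largest absolute log2 fold change, and the 3 most similar symbols of each gene called in both models. The alternatives tried were other pseudocounts (1 and 0.01), no minimum FPKM, a minimum of 1, 3 other scalings, no trend, a replicate block, no fold threshold, the log2 ratio of mean FPKM and leaving out each sample.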

Additional observations from a re-analysis of the deposited data

Results flagged for a closer look

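The log2 fold changes of 12 named genes differed between the models at an adjusted p under 0.05 (limma fits, Benjamini-Hochberg over 13486 symbols), beside 27% of all symbols. The adenine change minus the UUO change was -0.84 for Dkk2 and -1.44 for Dkk3. Among the other genes of the pathway it was -1.03 for Adgra2, -1.12 for Frzb, -1.90 for Fzd2, -1.39 for Nkd1, -1.80 for Nkd2, -1.16 for Porcn, -1.10 for Snai1 and -1.45 for Wnt5b, so that each of these values was lower with adenine, which for Nkd2 was the larger change, a fall. It was 1.04 for Cd44 and 1.99 for Fn1, which had the higher change in the adenine model. With median-of-ratios scaling Adgra2, Dkk2 and Dkk3 no longer passed, with adjusted p values of 0.129, 0.156 and 0.0629. As deposited, none of the 12 reached an absolute difference of 2, and with median-of-ratios scaling Fn1 did, at 2.30 (adjusted p = 0.0103).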

How the results depend on the processing

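In 109 repeats of the 5 counts under other settings the count stayed within 1.5 times its value, and in 13 it did not. Of the 10 genes, 4 were DEGs in the adenine model, 1 with a pseudocount of 1 and 7 with no fold threshold, and 6 in the UUO model. Of the other pathway genes, 13 passed in the adenine model and 55 with no fold threshold, and 20 in the UUO model, 10 with a pseudocount of 1, 11 with quantile normalization and 69 with no fold threshold. The 0 differences between the models became 2 with no fold threshold. Leaving out each sample on the entries tested with all 6 gave 3 to 6 and 6 to 7 of the 10 genes and 11 to 14 and 17 to 21 pathway genes. With the minimum FPKM applied again to the 5 samples left, the form whose values were seen before the other was settled on, it gave 2 to 6 and 4 to 7 of the 10 genes and 6 to 14 and 11 to 20 pathway genes. The low counts came without adenine replicate 1 or 2 (2 and 6), adenine replicate 3 (7 pathway genes) and UUO replicate 2 (11), where genes that are high only in the model no longer reach 3 samples. The log2 fold change of Fzd2 in the adenine model, 0.28, turned to -0.25 with quantile normalization and ranged from -0.055 (without control replicate 2) to 0.46 when samples were left out, and that of Nkd2 in the UUO model, -0.20, turned to 0.020 with FPKM rescaled to the same sum and ranged from -0.45 to 0.16 (without sham replicate 1), and the cause was not tested. In the adenine table same-numbered rats did not deviate together (correlations of -0.077, -0.123 and -0.049). In the UUO table the correlations were small, 0.050, 0.105 and 0.059, but every sample correlated best with its own number. The labels do not say whether a number marks a shared batch, and this was not tested. With the replicate block 4 and 6 of the 10 genes and 12 and 20 pathway genes were DEGs. Depth is unknown, and 3 rats a group cannot give an exact p under 0.1.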
